A study of Mus musculus with 15 samples.

Results

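The 10 genes described here encode the GATA factors GATA1 and GATA2, their partners TAL1, LMO2 and FOG1, the erythroid factor KLF1, the p45 subunit of NF-E2, and the RUNX and ETS factors RUNX1, ERG and FLI1. They were chosen by gene symbol, as Gata1, Gata2, Tal1, Lmo2, Zfpm1, Klf1, Nfe2, Runx1, Erg and Fli1, and all 10 were among the 23359 gene entries of each comparison table. The cells were leukemia stem cells (LSC), the leukemia cells held to renew the disease, from a mouse model of chronic myeloid leukemia in blast crisis that carries the human oncogenes BCR-ABL and NUP98-HOXA9. The 5 groups were LSC from gonadal adipose tissue (AT), peripheral blood (BL), spleen (SPL) and bone marrow (BM), and the LSC counterparts of normal bone marrow (NBM). All mice were female and 3 months old, the LSC were taken on day 12 after leukemia cells were transplanted into recipients, and each group had 3 RNA-seq libraries. The labels repeat the oncogene model and the transplantation for the NBM libraries and name no promoter, vector or sort gate. Nothing in them ties the 3 libraries of a group to separate mice, so the p-values may measure technical spread only.

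Blood transcription factors of this group work as assemblies. GATA factors bind sites with a GATA core, TAL1 binds a neighbouring E-box with an E protein, and LMO2 with LDB1 bridges the pair, while FOG1, the product of Zfpm1, binds GATA1 directly and not DNA. GATA2 is known for its role in stem cells, progenitors and mast cells, GATA1 for its role in red cells, megakaryocytes, mast cells and eosinophils, and KLF1 and NF-E2 for the late red cell and platelet genes. RUNX1, ERG and FLI1 occupy many sites together with GATA2, TAL1 and LMO2 in blood progenitors, and FLI1 also acts in megakaryocytes.

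All levels are the FPKM that the authors pooled over the 3 libraries of a group (fragments scaled by transcript length and by sequencing depth), so no group has a value per library. Estimated counts summed to 1.96e+07 for AT, 1.95e+07 for BL, 8.96e+06 for SPL and 1.65e+07 for BM LSC, and to 1.95e+07 for NBM cells. Log2 folds, test statistics and q-values are those of the authors' deposited tables, and ± is the standard error obtained as the fold over its statistic. A gene was called when the authors tested it and its q was below 0.05. Every comparison shares a group with others, so their results are not independent of each other. Stem and progenitor markers (5 genes, none at 0) summed to 122 FPKM in AT, 247 in BL, 126 in SPL and 145 in BM LSC, against 260 in NBM cells, and Ly6a made up most of each sum. They did not share one order: Kit stood at 1.64 FPKM in AT, 2.26 in BL, 4.10 in SPL and 2.93 in BM LSC, against 10.4 in NBM cells, and Meis1 at 3.20 in AT, 5.01 in BL, 14.2 in SPL and 12.1 in BM LSC, against 6.65 in NBM cells. Stromal markers summed to 29.0 FPKM over 7 genes in AT, 0.355 in BL, 1.60 in SPL and 0.653 in BM LSC and 0.601 in NBM cells, and 1 of the 7 stood at 0 in SPL LSC. Dcn, at 21.0 FPKM, made up most of the AT sum. Col1a2 did not share the order of the sums, at 0.425 FPKM in AT, 1.06 in SPL and 0.458 in BM LSC. The T and NK cell markers (5 genes, none at 0) summed to 130 FPKM in AT, 195 in BL, 334 in SPL and 205 in BM LSC, against 146 in NBM cells, nearly all of it from Nkg7 in the LSC groups. Cd3e, which defines T cells, stood at 0.210 FPKM in AT, 0.624 in BL, 1.98 in SPL and 0.415 in BM LSC, against 14.9 in NBM cells. Their part in the results was not tested.

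**Figure D1:**
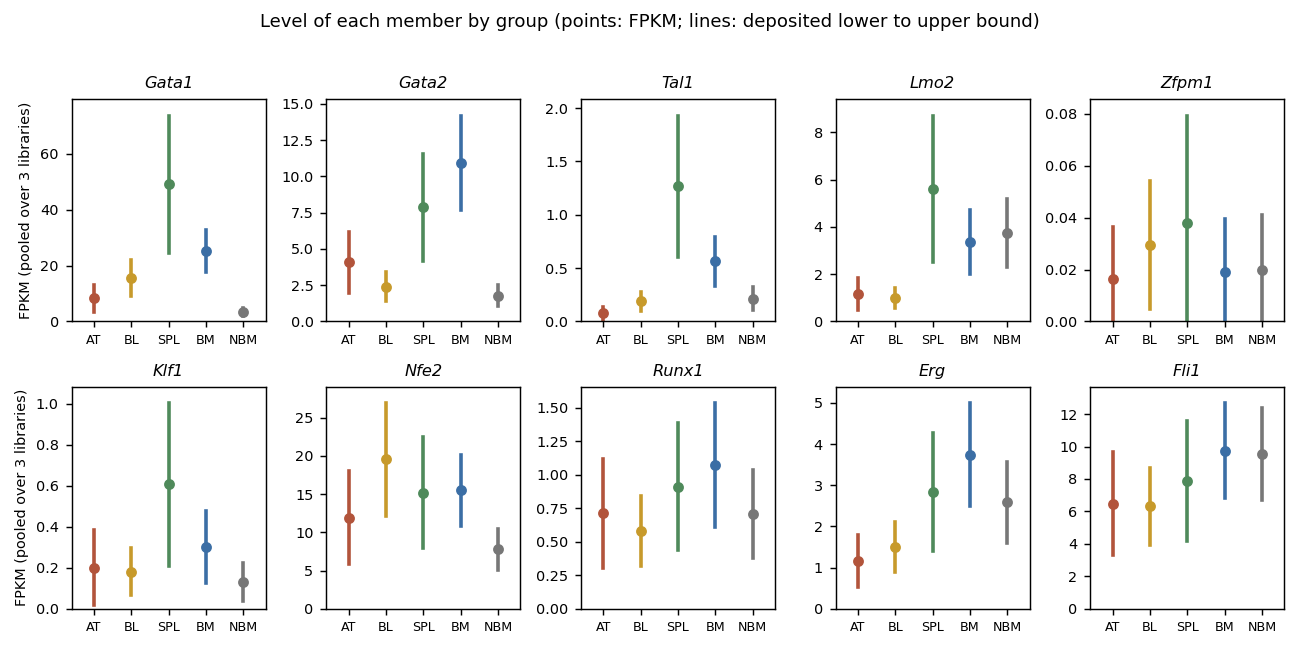
Each panel gives 1 gene, with pooled FPKM on its own linear axis from 0 for AT, BL, SPL and BM LSC and NBM cells; points are FPKM and lines run between the authors' bounds, 2 SD each side. Gata1 runs highest in SPL LSC at 49.1 FPKM, Gata2 in BM LSC at 10.9, and Zfpm1 stays below 0.04 in every group.

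Gata1, on the X chromosome (chrX:7959260-7967910, minus strand, mm10), was the member with the highest level in SPL and BM LSC and was higher in 3 of the 4 LSC groups than in normal marrow cells. Its level was 8.24 FPKM in AT, 15.6 in BL, 49.1 in SPL and 25.3 in BM LSC, against 3.51 in NBM cells. The bounds ran from 3.44 to 13.0 in AT, from 9.22 to 22.0 in BL, from 24.6 to 73.6 in SPL and from 17.8 to 32.9 in BM LSC, and from 2.07 to 4.94 in NBM cells, so the bounds of NBM overlapped with those of AT LSC and with no other group. The authors' deposited tables gave a log2 fold over NBM of 3.81 ± 0.47 in SPL (q 5.49e-14), 2.85 ± 0.37 in BM (q 1.07e-12) and 2.15 ± 0.42 in BL LSC (q 7.22e-06). For AT LSC over NBM the fold in the authors' deposited table was 1.23 ± 0.51 with q 0.0697, which is not called. Gata1 was called higher there when the groups were scaled by the median fold, the upper quartile or the total count. Among the sites, Gata1 fell in AT against SPL LSC by 2.58 ± 0.55 (log2, q 6.79e-05), in AT against BM LSC by 1.62 ± 0.47 (q 0.00522) and in BL against SPL LSC by 1.65 ± 0.47 (q 0.00365) in the authors' deposited tables. The AT over BM call was lost after centring all folds on their median (q 0.0752) and under upper quartile scaling (q 0.0721), and the BL over SPL call under upper quartile scaling (q 0.0635). Neighbours in the order of levels (SPL, BM, BL, AT, NBM) did not pass the test against each other. In bulk RNA, fewer cells of a type and less RNA per cell cannot be told apart, and that holds for every level here.

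The bases directly before the RefSeq start of Gata1 are shown with those of Tal1 and Klf1 in the paragraphs that follow, because these 3 were the members with both a promoter window and a testable count whose level was highest in SPL LSC. The Gata1 window is chrX:7967911-7968160 on the minus strand of GRCm38.p6 (RefSeq), and its start site equals the gene end in the authors' tables. It lies inside the longer Gata1 gene model of GENCODE M21, which reaches 7978071. Capitals mark CACCC, the box that KLF-type factors bind, on either strand.
Gata1: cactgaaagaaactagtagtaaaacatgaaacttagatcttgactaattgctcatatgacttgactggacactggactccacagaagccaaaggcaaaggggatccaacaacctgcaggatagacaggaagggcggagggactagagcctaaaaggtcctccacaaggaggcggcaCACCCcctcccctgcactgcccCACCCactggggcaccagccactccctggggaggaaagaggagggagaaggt
The Gata1 letters hold CACCC at 74 and 52 bases before the start and no GATAA on either strand. Over the 32851 mouse promoter windows of the same length, CACCC or its reverse complement GGGTG occurred in 52.0%, and GATAA or TTATC in 22.6%.

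Gata2 (chr6:88198664-88207032, plus strand) followed a different order of sites, with the highest level in marrow LSC. It stood at 4.08 FPKM in AT, 2.39 in BL, 7.86 in SPL and 10.9 in BM LSC, against 1.78 in NBM cells. BL LSC lay next to NBM cells, while BM and SPL LSC lay above both. In the authors' deposited tables its log2 fold over NBM was 2.62 ± 0.37 in BM (q 9.78e-11) and 2.14 ± 0.45 in SPL LSC (q 4.44e-05). In AT LSC over NBM it was 1.19 ± 0.48 (q 0.0569) and in BL LSC 0.43 ± 0.42 (q 0.558) in the authors' deposited tables, neither called. The AT value was called higher when the groups were scaled by the median fold, the upper quartile or the total count. Gata2 fell in BL against BM LSC by 2.19 ± 0.37 (log2, q 1.32e-07), in BL against SPL LSC by 1.72 ± 0.45 (q 0.00168) and in AT against BM LSC by 1.42 ± 0.43 (q 0.00787) in the authors' deposited tables. The last of these calls was lost under all 3 rescalings, with q 0.119 after centring, 0.115 under upper quartile and 0.0524 under total count scaling.

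The balance of the GATA paralogs was not the same at each site in these pooled values. The ratio of Gata1 to Gata2 FPKM was 2.02 in AT, 6.53 in BL, 6.25 in SPL and 2.32 in BM LSC, against 1.97 in NBM cells. On the log2 scale, with the SD implied by the bounds, that is 1.02 ± 0.56 in AT, 2.71 ± 0.42 in BL, 2.64 ± 0.50 in SPL and 1.21 ± 0.30 in BM LSC, and 0.98 ± 0.42 in NBM cells. BL and SPL LSC form the high pair, and AT LSC, BM LSC and NBM cells the low group. The Gata1 fold minus the Gata2 fold was 1.49 ± 0.52 for BL over BM LSC, 1.43 ± 0.58 for SPL over BM LSC and -1.69 ± 0.70 for AT over BL LSC, where ± adds the errors of both genes as if independent. It was 0.06 ± 0.65 for BL over SPL LSC and -0.20 ± 0.64 for AT over BM LSC. This difference was computed after the values were seen and was not tested. Rescaling the groups leaves it as it is, because both genes share the scale.

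**Figure D2:**
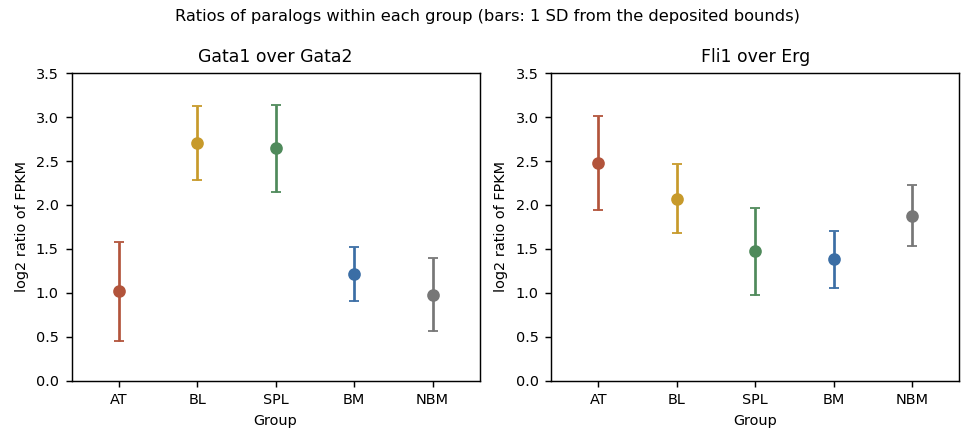
Log2 ratio of FPKM within each group, Gata1 over Gata2 on the left and Fli1 over Erg on the right, for AT, BL, SPL and BM LSC and NBM cells, with bars of 1 SD implied by the authors' bounds. Gata1 to Gata2 stands at 2.71 in BL and 2.64 in SPL LSC and between 0.98 and 1.21 in the other groups.

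Tal1 (chr4:115059527-115071755, plus strand), the helix-loop-helix partner of GATA1, had low levels and the widest range of the 10 genes, a ratio of 16.8 between its highest and lowest group. It stood at 0.0756 FPKM in AT, 0.189 in BL, 1.27 in SPL and 0.564 in BM LSC, against 0.215 in NBM cells. These levels rest on 28.8 estimated counts in AT, 60.7 in BL, 153 in SPL and 145 in BM LSC, and 68.6 in NBM cells. The authors' deposited tables gave a fall of 4.07 ± 0.69 (log2, q 2.28e-07) in AT against SPL, of 2.90 ± 0.65 (q 0.000155) in AT against BM, of 2.75 ± 0.52 (q 3.25e-06) in BL against SPL and of 1.58 ± 0.46 (q 0.00474) in BL against BM LSC. Against normal cells Tal1 rose by 2.56 ± 0.51 in SPL (q 1.58e-05) and by 1.39 ± 0.45 in BM LSC (q 0.0144) in the authors' deposited tables. AT LSC over NBM gave -1.51 ± 0.68 (q 0.0996) and BL LSC over NBM -0.19 ± 0.49 (q 0.868) in the authors' deposited tables, neither called, and the BL value turned positive when the groups were scaled by the median fold or the upper quartile.

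The Tal1 window shown is 1 of 2 that RefSeq gave and lies at chr4:115056176-115056425 on the plus strand of GRCm38.p6, directly before a Tal1 start in GENCODE M21 and 3101 bases upstream of the gene start in the authors' tables. The other, chr4:115057561-115057810, lies before a start that GENCODE M21 also has, 1716 bases upstream of the gene start in the authors' tables, and holds 0 matches to GATAA and 0 to CACCC on either strand. Capitals mark GATAA and CACCC, both here on the reverse strand.
Tal1: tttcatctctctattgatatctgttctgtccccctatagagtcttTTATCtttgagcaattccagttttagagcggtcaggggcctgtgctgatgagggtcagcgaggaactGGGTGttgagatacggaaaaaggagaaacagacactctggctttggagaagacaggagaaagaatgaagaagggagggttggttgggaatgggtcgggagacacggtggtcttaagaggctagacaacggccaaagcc
The reverse GATAA begins 205 bases before the start and the reverse CACCC 138 bases before it. A match is a run of letters, not a bound site, and such runs are common, as the shares over all windows show.

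Lmo2 (chr2:103957995-103981878, plus strand), the LIM-only bridge of the complex, differed from the GATA genes in that no LSC group was called above normal cells. Its level was 1.17 FPKM in AT, 0.985 in BL, 5.62 in SPL and 3.37 in BM LSC, against 3.75 in NBM cells. SPL LSC, BM LSC and NBM cells thus had overlapping bounds, and AT and BL LSC lay below them. In the authors' deposited tables Lmo2 fell by 1.93 ± 0.42 (log2, q 8.35e-05) in BL and by 1.69 ± 0.51 (q 0.00701) in AT LSC against NBM, the second of which was not called after centring on the median fold (-1.23, q 0.0744) or under upper quartile scaling (-1.26, q 0.0654). The folds were also negative in BL over SPL LSC at -2.51 ± 0.51 (q 1.91e-05), in AT over SPL LSC at -2.27 ± 0.58 (q 0.00116), in BL over BM LSC at -1.77 ± 0.43 (q 0.000513) and in AT over BM LSC at -1.53 ± 0.51 (q 0.0184), all called in the authors' deposited tables. The AT over BM call was lost under all 3 rescalings, with q 0.154 after centring, 0.149 under upper quartile and 0.0800 under total count scaling. The gene overlaps 4931422A03Rik on the opposite strand, by whole gene spans with introns included. Whether their exons overlap was not tested, and strand use in counting is not given in the sources used here. Shared reads are thus possible but not shown.

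Zfpm1 (chr8:122282141-122337247, plus strand), which encodes the GATA1 cofactor FOG1, was near the detection limit in every group. It stood at 0.0164 FPKM in AT, 0.0294 in BL, 0.0379 in SPL and 0.0189 in BM LSC, against 0.0200 in NBM cells. These values rest on 4.62 estimated counts in AT, 6.98 in BL, 3.34 in SPL and 3.39 in BM LSC, and 4.15 in NBM cells, and the authors did not test the gene in any comparison, so no fold is given. The gene also overlaps Gm20388 on the same strand. A difference between groups was not detectable at this depth. The ratio of Gata1 to Zfpm1 FPKM was 504 in AT, 531 in BL, 1297 in SPL and 1337 in BM LSC, against 175 in NBM cells, with the denominator resting on those few counts.

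Klf1 (chr8:84901928-84905295, plus strand), the activator of adult globin genes, was also low and was highest in SPL LSC. Levels were 0.201 FPKM in AT, 0.181 in BL, 0.606 in SPL and 0.302 in BM LSC, against 0.131 in NBM cells, on 13.1 to 24.6 estimated counts a group. The authors' deposited tables called a rise of 2.21 ± 0.69 (log2, q 0.00994) in SPL LSC against NBM and a fall of 1.74 ± 0.65 (q 0.0385) in BL against SPL LSC. The second call was lost under all 3 rescalings of the groups, with q from 0.106 to 0.191. The Klf1 window, chr8:84901732-84901927 on the plus strand of GRCm38.p6 (RefSeq), runs from 250 to 55 bases before the RefSeq start and stops just before the gene start in the authors' tables. Capitals mark CACCC, the reverse GATAA and the CAG that completes CTGNNNNNNNNGATAA on that strand, a spacing of E-box and GATA letters known from sites of TAL1 and GATA1 complexes.
Klf1: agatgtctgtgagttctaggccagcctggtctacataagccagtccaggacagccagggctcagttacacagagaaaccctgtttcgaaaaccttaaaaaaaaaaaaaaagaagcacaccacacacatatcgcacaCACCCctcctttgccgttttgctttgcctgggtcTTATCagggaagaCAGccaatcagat
The spaced motif reads from 80 to 65 bases before the start on the reverse strand and occurs in 0.502% of the 32851 windows, against 22.6% for GATAA alone. Of the 12 windows of the 7 members that RefSeq gave, it was found in this one.

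**Figure D3:**
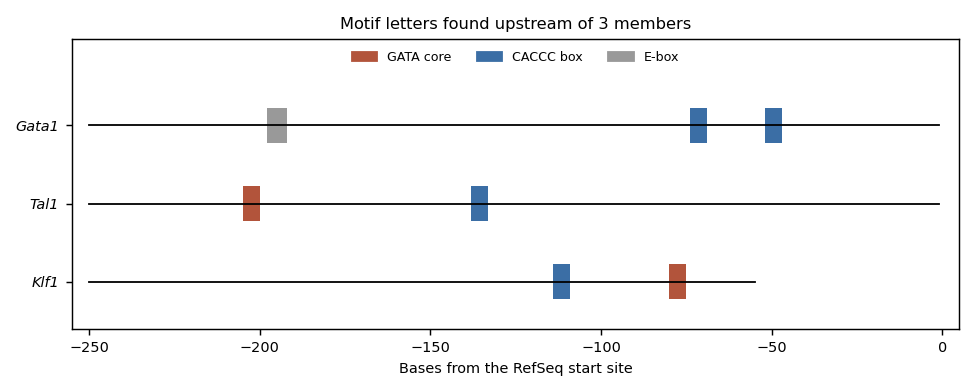
Positions of GATA core, CACCC and E-box letters on either strand in the windows shown for Gata1, Tal1 and Klf1 (x axis, bases from the RefSeq start site). Tal1 and Klf1 each hold 1 GATA core and 1 CACCC box, and Gata1 holds 2 CACCC boxes and 1 E-box (CANNTG).

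Nfe2 (chr15:103248218-103255416, minus strand), which encodes the p45 subunit that pairs with small MAF proteins at globin and platelet genes, was well expressed in all groups and was not called apart between any of the sites. It stood at 11.9 FPKM in AT, 19.6 in BL, 15.2 in SPL and 15.5 in BM LSC, against 7.78 in NBM cells. Among the LSC groups no comparison was called, the folds lying between -0.72 ± 0.46 for AT over BL (q 0.294) and 0.36 ± 0.44 for BL over SPL (q 0.649) in the authors' deposited tables. Against NBM it rose by 1.33 ± 0.37 (log2, q 0.00291) in BL and by 0.99 ± 0.33 (q 0.0165) in BM LSC in the authors' deposited tables. SPL LSC had a similar fold of 0.96 ± 0.42 that was not called (q 0.0879), and AT LSC 0.61 ± 0.44 (q 0.374) in the authors' deposited tables.

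Runx1, Erg and Fli1 were not called in any LSC group against NBM. Runx1 (chr16:92601466-92826066, minus strand) stood at 0.713 FPKM in AT, 0.579 in BL, 0.913 in SPL and 1.07 in BM LSC, against 0.705 in NBM cells. Its folds ran from -0.89 ± 0.45 in BL over BM LSC (q 0.157) to 0.61 ± 0.46 in BM LSC over NBM (q 0.401) in the authors' deposited tables, and no comparison was called. Fli1 (chr9:32422208-32541368, minus strand) stood at 6.47 FPKM in AT, 6.30 in BL, 7.87 in SPL and 9.75 in BM LSC, against 9.52 in NBM cells, a ratio of 1.55 between its highest and lowest group. Its lowest fold was -0.63 ± 0.35 in BL over BM LSC (q 0.208) in the authors' deposited table. Runx1 overlaps Gm26626 on the opposite strand. Fli1 overlaps 6 annotated genes, Gm27201 on the opposite strand and Gm22060, Gm38292, Gm38346, Gm37474 and Gm37082 on its own strand. These overlaps are of whole gene spans, introns included. Whether exons overlap was not tested, so shared reads are possible but not shown.

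Erg (chr16:95360204-95530365, minus strand), the ETS gene of stem cells and megakaryocytes, was the one of these 3 that differed between sites. It stood at 1.16 FPKM in AT, 1.50 in BL, 2.84 in SPL and 3.74 in BM LSC, against 2.59 in NBM cells. In the authors' deposited tables it fell by 1.69 ± 0.47 (log2, q 0.00285) in AT and by 1.32 ± 0.38 (q 0.00405) in BL against BM LSC. After centring on the median fold neither was called, with q 0.0506 for AT and 0.0585 for BL over BM LSC. The ratio of Fli1 to Erg FPKM was 5.57 in AT, 4.21 in BL, 2.77 in SPL and 2.60 in BM LSC, against 3.68 in NBM cells. Endothelial cells also express Erg, Fli1 and Tal1, and 9 endothelial markers summed to 18.6 FPKM in AT, 25.8 in BL, 13.0 in SPL and 13.8 in BM LSC, against 20.7 in NBM cells, with none at 0. Pecam1, which leukocytes also express, made up most of each sum, and Cdh5, the endothelial cadherin gene, stood at 0.276 FPKM in AT, 0.00106 in BL, 0.00546 in SPL and 0.00259 in BM LSC, against 0.342 in NBM cells. Kdr, Tek, Emcn and Esam were also higher in AT than in the other LSC groups, while Tie1, Egfl7 and Vwf were not. Tie1 stood at 0.290 FPKM in AT against 0.387 in BL LSC, and Egfl7 at 1.42 in AT against 2.55 in SPL LSC. The part of these markers in the levels was not tested.

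**Figure D4:**
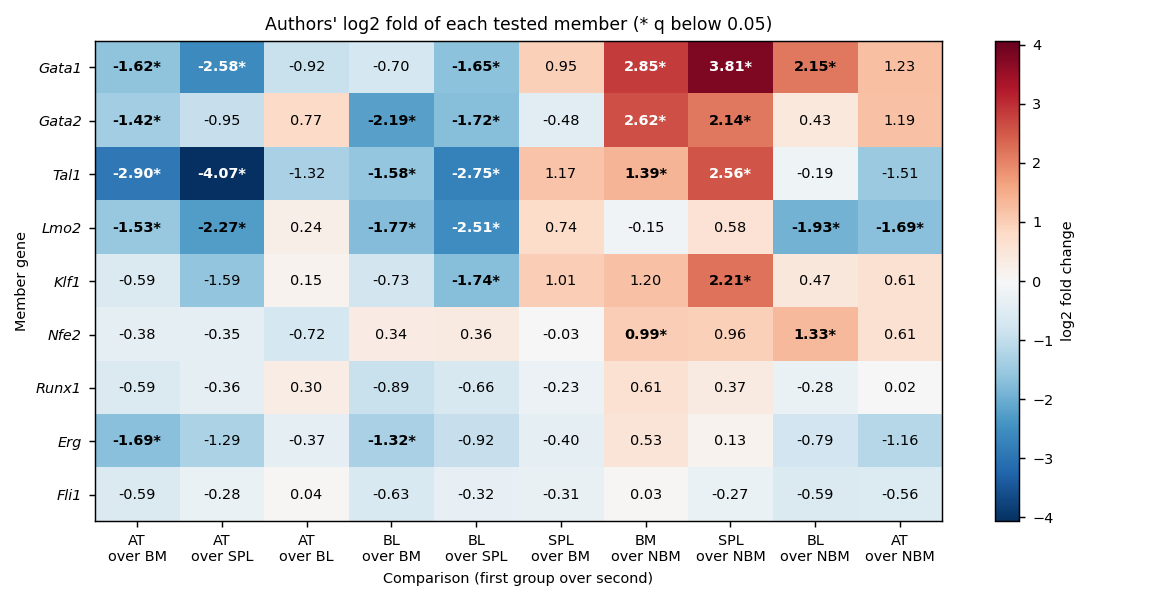
Log2 fold of the 9 tested genes (rows) in the 10 comparisons (columns, first group over second), as colour and printed value from the authors' deposited tables, with an asterisk where q was below 0.05. Gata1 over NBM reaches 3.81 in SPL LSC, and Tal1 in AT over SPL LSC reaches -4.07.

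Adipose LSC differed from marrow LSC in 5 of the 9 tested members, all lower: Gata1, Gata2, Tal1, Lmo2 and Erg. Of all tested genes, 7.24% were called higher and 15.5% lower in the authors' deposited table. The members' median log2 fold was -1.42, against -0.48 over all tested genes. After centring on that median Tal1 alone was called, beside 5.11% of all tested genes called lower. Upper quartile scaling left Tal1 and Erg (5.24% of all), and total count scaling left Gata1, Tal1 and Erg (7.52% of all). Against SPL LSC, AT LSC were lower for Gata1, Tal1 and Lmo2, 3 of 9 tested, where 7.2% of all tested genes were called higher and 17.9% lower in the authors' deposited table. Their median log2 fold was -1.29, against -0.52 over all tested genes. AT and BL LSC were not called apart at any member, where 4.01% of all tested genes were called higher and 2.51% lower in the authors' deposited table, and 0 of 9 members had an unadjusted p below 0.05. Neutrophil markers (6 genes, none at 0) summed to 3943 FPKM in AT, 1125 in BL, 680 in SPL and 864 in BM LSC, against 1549 in NBM cells. Macrophage markers (6 symbols for 5 genes, all found, none at 0) summed to 142 FPKM in AT, 278 in BL, 44.6 in SPL and 74.9 in BM LSC, against 73.2 in NBM cells. Both sums were higher in AT LSC than in BM or SPL LSC, while the members called there were lower in AT LSC. Emr1, Cd68 and Csf1r made up most of each macrophage sum, and the other macrophage markers did not share its order. Mrc1 stood at 0.321 FPKM in AT against 0.760 in BM LSC, and C1qa at 0.635 in AT against 1.22 in SPL LSC. The part of these markers in the result was not tested.

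Blood LSC were lower than spleen LSC in Gata1, Gata2, Tal1, Lmo2 and Klf1, 5 of 9 tested, where the authors' deposited table called 10.2% of all tested genes higher and 23.1% lower. The median log2 fold of the members was -1.65, against -0.40 over all tested genes, and upper quartile scaling left 3, without Gata1 and Klf1, beside 13% of all tested genes called lower. The macrophage sum was 278 FPKM in BL LSC, against 44.6 in SPL LSC, and B cell markers (4 genes, none at 0) summed to 2.09 FPKM in BL LSC, against 7.67 in SPL LSC. Among the macrophage markers C1qa went the other way, at 0.583 FPKM in BL against 1.22 in SPL LSC. So did Pax5 among the B cell markers, at 0.0479 FPKM in BL against 0.0197 in SPL LSC, on 3.85 and 0.633 estimated counts. The part of these markers in this result was not tested. Against BM LSC, BL LSC were lower for Gata2, Tal1, Lmo2 and Erg, 4 of 9, where 10.5% of all tested genes were called higher and 22.8% lower in the authors' deposited table. The medians were -0.89 for the members and -0.37 for all tested genes. SPL and BM LSC were called apart at 0 of 9 members, where 1.19% of all tested genes were called higher and 1.5% lower in the authors' deposited table. At an unadjusted p below 0.05 there were 2, with Gata1 at 0.95 ± 0.42 (p 0.0230) and Tal1 at 1.17 ± 0.48 (p 0.0143) in SPL over BM LSC in the authors' deposited table.

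Against normal marrow cells, BM LSC were higher for Gata1, Gata2, Tal1 and Nfe2, 4 of 9 tested, where 8.17% of all tested genes were called higher and 7.85% lower in the authors' deposited table. SPL LSC were higher for Gata1, Gata2, Tal1 and Klf1, also 4 of 9, where 6.37% of all tested genes were called higher and 6.19% lower in the authors' deposited table. The members' medians were 0.99 in BM and 0.96 in SPL LSC over NBM, against -0.03 and 0.11 over all tested genes in the same comparisons. BL LSC were higher for Gata1 and Nfe2 and lower for Lmo2, 3 of 9, where 11.5% of all tested genes were called higher and 22.9% lower in the authors' deposited table, so 3 of 9 is near the background. AT LSC were lower for Lmo2, 1 of 9, where the authors' deposited table called 7.94% of all tested genes higher and 15.5% lower. After centring, AT LSC were instead higher for Gata1 at 1.69 (q 0.00866) and Gata2 at 1.65 (q 0.00536), beside 12.4% of all tested genes called higher and 6.56% lower, and Lmo2 was not called, so this comparison depended on the scaling.

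Other regulators that work with these factors were read from a list of 38, all found. They divided in both directions: 6 were higher and 9 lower of 36 tested in AT over BM LSC, 5 higher and 12 lower of 36 in BL LSC over NBM, and 0 of 36 were called in SPL over BM LSC in the authors' deposited tables, whose shares over all tested genes are given with the members. After centring the balance turned over, to 8 higher and 3 lower in AT over BM LSC, beside 11.8% of all tested genes higher and 5.11% lower, and to 7 higher and 5 lower in BL LSC over NBM, beside 16.6% higher and 14% lower. Among the partners in SPL over BM LSC 0 of the 36 had an unadjusted p below 0.05 either. Gfi1b, a repressor needed in red cell and platelet development, also counted in the erythroid list, followed the Gata1 order, at 6.01 FPKM in AT, 9.26 in BL, 22.7 in SPL and 16.0 in BM LSC, against 2.83 in NBM cells. Its log2 fold over NBM was 3.00 ± 0.47 in SPL (q 1.59e-08), 2.50 ± 0.37 in BM (q 1.18e-09) and 1.71 ± 0.40 in BL LSC (q 0.000339) in the authors' deposited tables. Myb, a factor of immature blood cells, stood at 0.775 FPKM in AT, 0.255 in BL, 2.59 in SPL and 2.51 in BM LSC, against 2.78 in NBM cells, and fell by 3.45 ± 0.54 (log2, q 1.27e-08) in BL LSC against NBM in the authors' deposited table. Bcl11a, the repressor of fetal globin genes, was at 0.177 FPKM in AT, 0.229 in BL, 3.21 in SPL and 1.54 in BM LSC, against 2.74 in NBM cells. Its fold was -4.18 ± 0.97 (q 0.000254) in AT over SPL LSC in the authors' deposited table. Klf3, a repressor of the KLF family, and Bach1, a haem-regulated partner of small MAF proteins, went the other way. Klf3 rose in BL LSC to 7.71 FPKM against 0.819 in BM LSC (3.23 ± 0.42, log2, q 1.29e-12) and Bach1 reached 1.39 FPKM in BL LSC against 0.257 in BM LSC (2.43 ± 0.43, q 4.87e-07) in the authors' deposited table. The E protein genes Tcf4 and Tcf12 differed in BM LSC over NBM, Tcf12 at 1.25 ± 0.43 (q 0.0222) and Tcf4 at -0.98 ± 0.34 (q 0.0249) in the authors' deposited table. Gata3, the lymphoid GATA gene, stood at 0.405 FPKM in BM LSC against 1.11 in NBM cells, with a log2 fold of -1.46 ± 0.44 (q 0.00692) in the authors' deposited table.

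Red cell genes that GATA1, TAL1 and KLF1 are known to activate were read from a list of 25 symbols, of which 22 were found. Epb42 was found as Epb4.2, also listed, and Ahsp was not found, nor was its other listed symbol Eraf. In SPL LSC over NBM 13 rose and 0 fell of 20 tested, and in BM LSC over NBM 10 rose and 0 fell of 18 tested, while in BL LSC over NBM 5 rose and 4 fell of 19 and in AT LSC over NBM 2 rose and 1 fell of 18, in the authors' deposited tables. Between the sites, 13 fell and 1 rose of 20 in BL over SPL LSC, 11 fell and 0 rose of 20 in AT over SPL LSC, and 9 fell and 0 rose of 18 in AT over BM LSC in the authors' deposited tables, the last count becoming 4 after centring. Of all tested genes, 10.2% were called higher and 23.1% lower in BL over SPL LSC. The shares were 7.2% and 17.9% in AT over SPL, and 7.24% and 15.5% in AT over BM LSC. The NBM counts of AT and BL LSC stand beside 7.94% of all tested genes higher and 15.5% lower in AT, and 11.5% higher and 22.9% lower in BL LSC. Those of SPL and BM LSC stand beside 6.37% higher and 6.19% lower in SPL, and 8.17% higher and 7.85% lower in BM LSC. After centring, 7 rose and 2 fell in BL LSC over NBM, beside 16.6% of all tested genes higher and 14% lower. In AT LSC over NBM 3 then rose and 0 fell, beside 12.4% higher and 6.56% lower. The 4 that fell in AT over BM LSC after centring stand beside 5.11% of all tested genes lower and 11.8% higher. The list's median log2 fold in SPL LSC over NBM was 2.95, against 0.11 over all tested genes. Car1, the erythroid carbonic anhydrase, stood at 8.95 FPKM in AT, 11.9 in BL, 239 in SPL and 71.1 in BM LSC, against 13.1 in NBM cells. Its log2 fold in SPL LSC over NBM was 4.19 ± 0.48, with a q listed as 0 in the authors' deposited table. Rhag, a Rh-associated membrane channel of red cells, stood at 1.39 FPKM in AT, 1.61 in BL, 22.0 in SPL and 11.3 in BM LSC, against 1.53 in NBM cells. Ermap, a red cell surface protein, stood at 0.268 FPKM in AT, 0.147 in BL, 3.68 in SPL and 0.986 in BM LSC, against 0.449 in NBM cells, and rose by 1.90 ± 0.45 (log2, q 0.000421) in SPL against BM LSC in the authors' deposited table. Epor, the erythropoietin receptor gene, was at 0.277 FPKM in AT, 0.268 in BL, 2.85 in SPL and 1.96 in BM LSC, against 0.170 in NBM cells.

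Globin genes did not follow that order. The alpha globin entry named Hba-a1 and Hba-a2 together was highest in blood: the authors' deposited tables gave log2 folds of 5.22 ± 0.49 in BL LSC over NBM (q listed as 0), 1.91 ± 0.57 in BL over SPL LSC (q 0.00653), 2.24 ± 0.44 in BL over BM LSC (q 9.24e-06) and -1.91 ± 0.54 in AT over BL LSC (q 0.00397). It was also called over NBM in the other LSC groups, at 3.31 ± 0.56 in AT (q 1.37e-07), 3.31 ± 0.58 in SPL (q 5.64e-07) and 2.98 ± 0.46 in BM LSC (q 5.05e-09) in the authors' deposited tables. Its level is not given, since the FPKM of Hba-a1 differed between the deposited tables, and the copies are near-identical, so their reads are uncertain. The Hbb-b1 entry, named together with the near-identical Hbb-b2 in the authors' comparison tables, so that the split of reads between them is uncertain, stood at 154 FPKM in AT, 421 in BL, 307 in SPL and 364 in BM LSC, against 38.9 in NBM cells. Against NBM it rose by 3.44 ± 0.62 (log2, q 1.24e-06) in BL, by 3.23 ± 0.52 (q 2.47e-08) in BM, by 2.98 ± 0.67 (q 0.000142) in SPL and by 1.99 ± 0.64 (q 0.0131) in AT LSC in the authors' deposited tables. Alas2, the erythroid gene for the first step of haem synthesis, was at 1.23 FPKM in AT, 4.24 in BL, 2.10 in SPL and 0.845 in BM LSC, against 0.845 in NBM cells, and fell by 1.79 ± 0.65 (q 0.0330) in AT against BL LSC in the authors' deposited table. The part of mature red cells in these levels was not tested.

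Megakaryocyte genes, of which 20 were listed and found, were called higher in part in every LSC group. In SPL LSC over NBM 10 rose and 1 fell of 16 tested, in BM LSC over NBM 10 rose and 2 fell of 17, in BL LSC over NBM 10 rose and 1 fell of 18 and in AT LSC over NBM 5 rose and 1 fell of 16, in the authors' deposited tables. Beside these, 6.37% of all tested genes were called higher and 6.19% lower in SPL, and 8.17% and 7.85% in BM LSC. The shares were 11.5% and 22.9% in BL, and 7.94% and 15.5% in AT LSC. Between the sites, 7 fell and 1 rose of 17 in AT over BM LSC, 8 fell and 3 rose of 18 in BL over SPL LSC, and 2 rose and 0 fell of 17 in SPL over BM LSC in the authors' deposited tables. Of all tested genes, 7.24% were called higher and 15.5% lower in AT over BM LSC. The shares were 10.2% and 23.1% in BL over SPL, and 1.19% and 1.5% in SPL over BM LSC. After centring, BL over SPL LSC gave 4 fallen and 4 risen, beside 14.9% of all tested genes higher and 14.5% lower. AT over BM LSC then gave 6 fallen and 3 risen, beside 11.8% of all tested genes higher and 5.11% lower. Pf4, the platelet chemokine gene, stood at 3.91 FPKM in AT, 9.52 in BL, 61.1 in SPL and 34.9 in BM LSC, against 7.17 in NBM cells. Gp1ba, part of the receptor for von Willebrand factor, stood at 0.305 FPKM in AT, 0.693 in BL, 6.33 in SPL and 3.70 in BM LSC, against 0.637 in NBM cells, and its log2 fold of 3.31 ± 0.48 in SPL LSC over NBM had q 7.73e-10 in the authors' deposited table. Itga2b, the alpha subunit of the platelet integrin, had 4.80 FPKM in AT, 5.14 in BL, 11.5 in SPL and 18.8 in BM LSC, against 2.64 in NBM cells. The 4 defining megakaryocyte markers summed to 10.9 FPKM in AT, 22.3 in BL, 87.3 in SPL and 64.1 in BM LSC, against 12.5 in NBM cells, with none at 0. Pf4 made up most of the sum in SPL LSC, BM LSC and NBM cells. Itga2b and Ppbp did not share the order of the sums. The part of these markers in the levels of Gata1, Nfe2 and Fli1 was not tested.

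Mast cell and basophil genes, a list of 12 tied to GATA2, were called higher in part in every LSC group against NBM and lower in part at each other site against BM LSC. In BM LSC over NBM 9 rose and 0 fell of 11 tested, in SPL LSC 7 rose and 2 fell of 12, in BL LSC 7 rose and 3 fell of 12 and in AT LSC 5 rose and 2 fell of 12 in the authors' deposited tables. Beside these, 8.17% of all tested genes were called higher and 7.85% lower in BM, and 6.37% and 6.19% in SPL LSC. The shares were 11.5% and 22.9% in BL, and 7.94% and 15.5% in AT LSC. After centring, 9 rose and 0 fell in BM, 6 and 2 in SPL, 8 and 3 in BL, and 6 and 2 in AT LSC. The centred shares of all tested genes were 16.6% higher and 14% lower in BL, and 12.4% and 6.56% in AT LSC. For BM and SPL LSC over NBM the centred shares were not computed. In AT over BM, BL over BM and SPL over BM LSC 6 fell and 0 rose of 11 in each comparison in the authors' deposited tables. The share of all tested genes called lower was not the same, at 15.5% in AT over BM, 22.8% in BL over BM and 1.5% in SPL over BM LSC. After centring, 4 fell in AT over BM, 5 in BL over BM and 6 in SPL over BM LSC, and 0 rose in each. In AT over BM LSC 5.11% of all tested genes were then called lower and 11.8% higher. The centred shares of BL over BM and SPL over BM LSC were not computed. Cma1, a chymase gene, stood at 76.9 FPKM in AT, 188 in BL, 70.8 in SPL and 205 in BM LSC, against 2.12 in NBM cells. Tpsb2, a tryptase gene, was at 0.846 FPKM in AT, 1.23 in BL, 0.514 in SPL and 16.1 in BM LSC, against 0.581 in NBM cells, and its log2 fold of -4.97 ± 0.56 in SPL over BM LSC had a q listed as 0 in the authors' deposited table. Cpa3, a mast cell carboxypeptidase, was at 17.5 FPKM in AT, 36.9 in SPL and 113 in BM LSC, against 13.8 in NBM cells. Prg2, an eosinophil granule gene, stood at 36.1 FPKM in AT, 3.08 in BL, 72.9 in SPL and 47.3 in BM LSC, against 39.3 in NBM cells. The 4 defining mast cell and basophil markers summed to 319 FPKM in AT, 365 in BL, 242 in SPL and 385 in BM LSC, against 110 in NBM cells. Mcpt8 made up most of each sum. Fcer1a did not share its order, at 1.99 FPKM in AT, 1.33 in BL, 2.18 in SPL and 8.31 in BM LSC, against 8.24 in NBM cells. The part of these markers in the Gata2 levels was not tested.

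**Figure D5:**
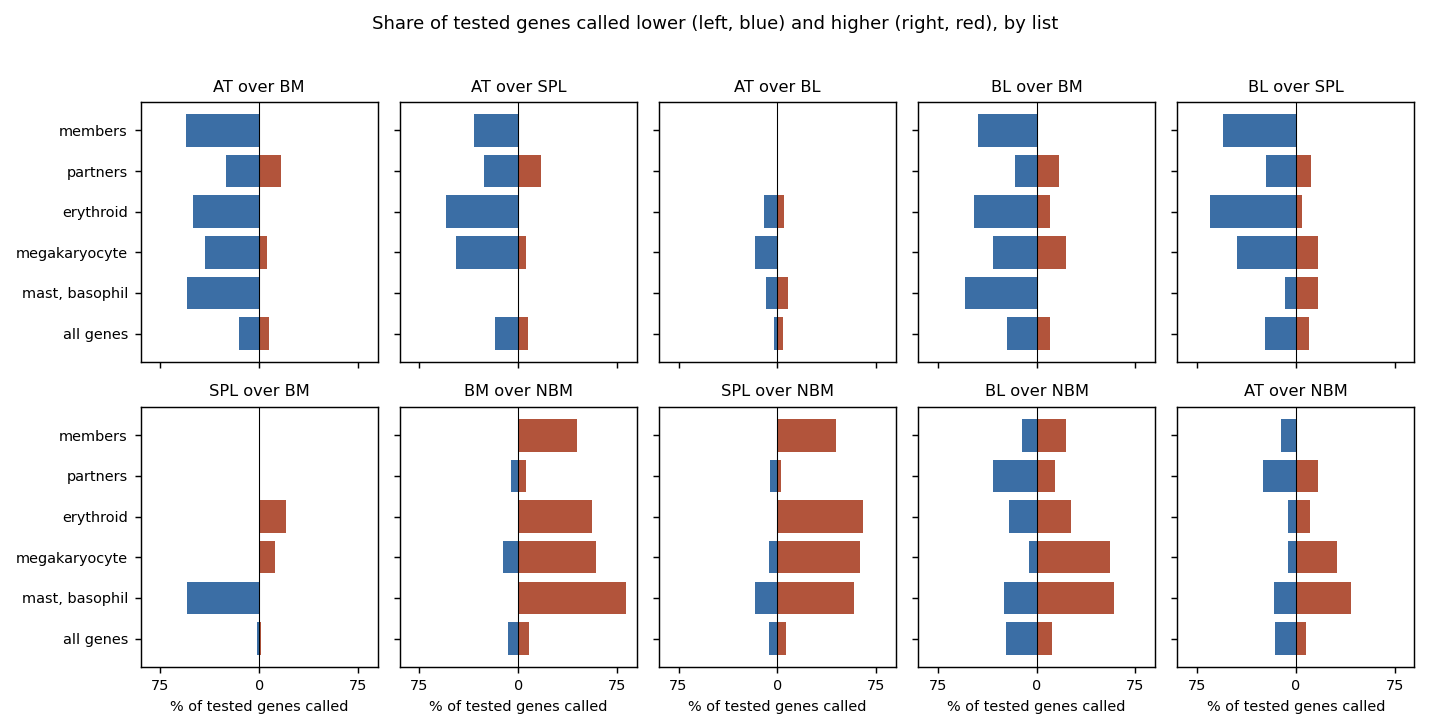
Percent of tested genes called lower (left, blue) and higher (right, red) at q below 0.05 in the 10 comparisons, for the members, the 4 lists and all genes. In SPL LSC over NBM the erythroid bar stands for 13 higher and 0 lower of 20 tested, beside 6.37% higher and 6.19% lower of all genes.

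The genes whose levels over the 5 groups ran most like each member were taken by the smallest Euclidean distance between log2(FPKM + 0.1) profiles centred on their mean, among about 10240 genes with 100 or more estimated counts in a group. For Gata1 they were Cd59b (0.18), Cd59a (0.19) and Ak1 (0.33), for Gata2 Ect2l (0.33), Bicd1 (0.61) and Nt5e (0.62), and for Tal1 Ehhadh (0.43), Steap3 (0.52) and Epb4.1l4b (0.55). Lmo2 ran with Exosc8 (0.10), Ppie (0.10) and Rpf2 (0.11), Klf1 with Gid8 (0.14), Cd81 (0.17) and Iffo1 (0.28), and Nfe2 with Tmem159 (0.10), Serpinb6b (0.20) and Klhl5 (0.21). Runx1 ran with Pdk3 (0.14), Gaa (0.15) and Rnaseh2c (0.17), Erg with Spg20 (0.20) and Plekha5 (0.21), and Fli1 with Uba2 (0.08), Mllt11 (0.11) and Osbpl7 (0.11). Cd59b, for example, stood at 1.85 FPKM in AT, 3.33 in BL, 11.4 in SPL and 5.43 in BM LSC, against 0.628 in NBM cells. Profiles over 5 pooled values hold little information, and Zfpm1, at a few counts a group, has no informative neighbour.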

How the data were processed

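RNA-seq was done on 15 libraries, 3 in each of 5 groups. Per the labels' protocols, Qiagen RNeasy Plus gave the RNA, and low-input libraries used the Clontech SMARTer and Illumina Nextera XT kits. Per the submitters' processing notes, Trimmomatic 0.32, Cufflinks 2.0.2 and Cuffdiff were used with mm10. Which aligner, gene annotation and Cuffdiff version they used is not given in the sources used here. Deposited by the authors were 1 FPKM per gene and group, with bounds 2 SD on either side, and an estimated count per gene and group. For each of 10 pairs of groups the authors deposited a log2 fold change, a test statistic (a score), a p-value and a q-value.

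No deposited column holds a single library, so no test of replicates was computed here and the authors' tests were used. The deposited q-values equalled a Benjamini-Hochberg adjustment over all 10 comparisons together to within 1.70e-06. Deposited gene starts count from 0: adding 1 made 10039 of 21624 matched genes start at a GENCODE M21 transcript, against 964 as deposited, so coordinates are given from 1. Scaling alternatives kept each gene's standard error and recomputed p and q; a filter at a mean CPM (estimated counts scaled to equal depth) of 1 was also tried. The recalculation was tested on simulated data. The genes and lists were chosen with earlier results of these data known; from each list up to 4 called genes with the smallest q in a comparison could be named. A few genes that these rules pick are left out of the text and not reported here. Promoter windows and motifs are from RefSeq on GRCm38.p6. Python 3.11.15, pandas 2.3.3, NumPy 2.4.6, SciPy 1.17.1 and matplotlib 3.10.9 were used.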

Additional observations from a re-analysis of the deposited data

How the results depend on the processing

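Of the 90 member folds, none changed its direction or its side of the threshold when q was adjusted within a comparison, when genes under a mean CPM of 1 were left out, or when merged entries were left out. Rescaling the groups mattered more, since the median fold of all tested genes ranged from -0.52 in AT over SPL LSC to 0.12 in SPL over BM LSC. The 5 members called in AT over BM LSC became 1 after centring on the median fold, 2 under upper quartile and 3 under total count scaling. The 5 called in BL over SPL LSC became 3 under upper quartile scaling. The 1 called in AT LSC over NBM, Lmo2 as lower, became 2 after centring, 2 under upper quartile and 3 under total count scaling. Gata1 and Gata2, both higher, were the 2 called after centring and under upper quartile scaling, where Lmo2 was lost. Total count scaling called these 2 higher and Lmo2 lower. The cause was not tested.

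Folds that changed sign had not been called. Centring, then upper quartile scaling, gave 0.10 and 0.0875 for Nfe2 in AT over BM, 0.0791 and 0.17 for Fli1 in BL over SPL, 0.18 and 0.15 for Tal1 in BL over NBM and 0.0812 and 0.0572 for Runx1 in BL over NBM. In AT over SPL, centring, upper quartile, total count and CPM gave 0.17, 0.22, 0.18 and 0.14 for Nfe2, 0.16, 0.22, 0.17 and 0.35 for Runx1, and 0.24, 0.29, 0.25 and 0.27 for Fli1. Upper quartile, total count and CPM gave -0.0055, -0.0194 and -0.0225 for Fli1 in BM over NBM and -0.0130, -0.14 and -0.11 for Erg in SPL over NBM. With 1 added to FPKM, 26 folds moved by more than their error. The highest group was the same by CPM for 9 of the 10 members; Fli1 was then highest in NBM.

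No paired analysis was possible because the deposited columns pool the replicates of a group, and hold no value of a single replicate. Depth limits Zfpm1 and Klf1 most, and SPL LSC had the fewest counts, so a member not called is not shown to be unchanged.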
